A study of Xenopus laevis with 9 samples.

Results

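The genes described here encode the extracellular side of Wnt signalling: the Wnt ligands, the Frizzled receptors, and 2 families of secreted inhibitors, the secreted Frizzled-related proteins (sFRPs) and the Dickkopfs. They were chosen by symbol alone, as every gene whose name begins with wnt, fzd, sfrp or dkk followed by a digit. Of 51061 genes in the count tables, 66 met this rule: 37 wnt, 17 fzd, 7 sfrp and 5 dkk rows. Xenopus laevis is an allotetraploid frog that carries many genes in an L and an S copy (homeologs), and 26 of the gene names were present as both. A further 10 loci carry provisional Wnt pathway names in the tables and do not meet the rule.

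RNA was sequenced from animal pole explants, the part of the blastula whose cells are pluripotent and can form ectoderm, in 3 groups of 3 libraries, all from embryos of wild-type genotype. The first group was collected at stage 9 with no treatment named (St9 wild type), and the second at stage 9 after injection of soxb1 morpholinos, translation-blocking antisense oligonucleotides against sox2 and sox3 (St9 soxb1 morphant). The third, St11.5 NPB, was collected at stage 11.5 after injection of Wnt8a and Chordin mRNA, a pair of factors used to bring explants to a neural plate border state. Each library came from pooled explants, and the study counts its replicates as biological. No library with a control morpholino, and no untreated library of stage 11.5, was analysed here, so an effect of injection itself was not tested, and stage, injected mRNA and count table cannot be told apart between NPB and wild-type libraries. Because wnt8a mRNA was injected, the 2 wnt8a rows are described apart from the other 64 members.

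Wnt ligands are lipid-modified secreted proteins that bind the cysteine-rich domain of Frizzled receptors. In the canonical branch, a ligand joins Frizzled to the co-receptors Lrp5 and Lrp6, which spares β-catenin from degradation and lets it act with Tcf/Lef factors in the nucleus. In the non-canonical branches, used by ligands such as Wnt5 and Wnt11, Frizzled signals through Ror and other partners to cell polarity and movement. sFRPs carry a Frizzled-like domain and bind Wnts outside the cell, whereas Dickkopf-1 binds Lrp5 and Lrp6. In the frog ectoderm, Wnt activity together with lowered BMP activity is known for inducing the neural plate border and the neural crest.

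Library totals lay between 25796466 and 48839143 counts. Levels are given as CPM, the counts scaled to a common library total, and a count of 3, taken as the floor of detection, corresponded to between 0.0614 and 0.116 CPM. This floor covers counting error only. The animal pole ectoderm markers sox3, foxi2, foxi1 and grhl1 summed to 1024 to 1517 CPM in wild-type, 1569 to 1976 CPM in morphant and 339 to 429 CPM in NPB libraries, none of them at 0. A translation-blocking morpholino need not lower its target's RNA, so transcript levels do not check the morphant label: sox3.L stood at 186, 174 and 268 CPM in wild-type and 313, 388 and 485 CPM in morphant libraries. The neural plate border markers pax3, zic1, msx1 and tfap2a together stood at 246 to 317 CPM in wild-type, 102 to 139 CPM in morphant and 1449 to 2046 CPM in NPB libraries, and none of the 4 was at 0 in any group. Both tfap2a rows overlapped between wild-type and NPB libraries. tfap2a.L had 104 to 114 CPM in wild-type and 230, 42.8 and 64.5 CPM in NPB libraries, and tfap2a.S 34.4 to 48.9 and 199, 46.0 and 75.2 CPM. Endoderm markers summed to 16.1 to 26.9 CPM in wild-type and 41.2 to 63.9 CPM in morphant libraries, with 5 of 6 markers found. They summed to 0.596 to 4.53 CPM in NPB libraries. Mesoderm markers (5 of 6 found) summed to 5.08 to 16.3 CPM in wild-type, 7.71 to 9.07 CPM in morphant and 0.976 to 23.4 CPM in NPB libraries, with myf5 at 0 in morphant and tbx6 at 0 in NPB libraries. Markers of the p53 response (4 of 4 found) stood at 86.5 to 123.5 CPM, 245 to 328 CPM and 209.5 to 621 CPM in the same order. Neural plate markers (4 of 4 found) stood at 30.9 to 50.3, 72.4 to 80.7 and 244 to 325 CPM, neural crest markers (4 of 4 found) at 5.43 to 16.5, 1.67 to 2.82 and 1.10 to 4.04 CPM, and epidermis markers (3 of 4 found) at 114 to 166, 165 to 235 and 219 to 354 CPM. Organizer markers (4 of 4 found) stood at 73.5 to 99.0 CPM in wild-type and 31.2 to 67.9 CPM in morphant libraries, and in NPB libraries they include the injected Chordin. The mesoderm sums overlapped between all groups, and the epidermis sums overlapped between morphant and wild-type libraries. The other class sums differed between morphant and wild-type libraries without overlap. However, the ectoderm and neural plate sums include the morpholino targets sox3 and sox2. The neural plate markers were sox2, neurog2, otx2 and nrp1, and their higher morphant sum lay mainly in the sox2 rows. sox2.L (gene45195) had 19.6 to 36.5 CPM in wild-type and 54.2 to 61.98 CPM in morphant libraries. sox2.L (gene41682) had 5.85 to 9.46 and 15.2 to 17.2 CPM. neurog2.L was lower in morphant libraries without overlap, at 0.799 to 2.02 and 0.131 to 0.46 CPM. Taken singly, neurog2.S and every foxi2, foxi1, grhl1, otx2 and nrp1 row overlapped between morphant and wild-type libraries. Some mesoderm rows differed without overlap, in both directions. Higher in morphant libraries were myod1.L (0.504 to 1.02 and 2.07 to 4.31 CPM), myod1.S (0.233 to 0.639 and 1.12 to 1.35 CPM) and tbxt.S (0.447 to 0.674 and 1.55 to 2.13 CPM). eomes.L was lower (1.98 to 5.43 and 1.02 to 1.52 CPM). Of the epidermis rows, grhl3.L and trim29.L were higher without overlap. The part of these marker classes in the results on Wnt genes was not tested. In bulk RNA, fewer cells of a type and less RNA per cell cannot be told apart.

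Most of the ligand genes were silent or close to it in all 3 groups, while every Frizzled member was detected. A locus provisionally named fzd8, which is not a member, had 0 counts in each library. Of the 66 members, 2 had no count in any of the 9 libraries and 12 had at most 3 counts in each library. A group mean above 1 CPM was reached by 24 members in wild-type, 22 in morphant and 26 in NPB libraries, and a mean above 10 CPM by 7, 6 and 14. All 17 fzd rows had at least 1 count in each library, and 13 to 15 of them had a group mean above 1 CPM, against 4 to 7 of the 37 wnt rows. A transcript under the floor may still be present at a lower level.

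Family sums of CPM are given on the library total, which is not adjusted for composition. TMM scaling, which does adjust for it, had factors of 0.650 to 0.765 for NPB and 1.15 to 1.20 for wild-type libraries. NPB sums therefore stand higher against wild type with that scaling than here. Family sums cannot be followed between families, since CPM is not corrected for length. The fzd rows together reached 358 ± 59.4 CPM in wild-type, 290.2 ± 98.2 CPM in morphant and 642 ± 50.7 CPM in NPB explants (SD, n = 3 libraries here and for each mean below). The sfrp rows summed to 196 ± 48.7, 91.1 ± 23.1 and 246 ± 29.0 CPM. The dkk rows summed to 5.03 ± 1.12, 2.56 ± 0.957 and 10.6 ± 6.29 CPM. Ligands other than wnt8a summed to 32.7 ± 20.1, 69.0 ± 36.0 and 29.1 ± 11.9 CPM. Wild-type and NPB libraries overlapped in this ligand sum, and the order of their means depends on the scaling. The lowest wild-type library (145 CPM) and the highest morphant library (105 CPM) did not overlap for the sfrp sum, whereas the ligand sums of those groups did overlap, from 14.6 to 54.3 CPM in wild-type and from 32.0 to 104 CPM in morphant libraries.

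**Figure D1:**
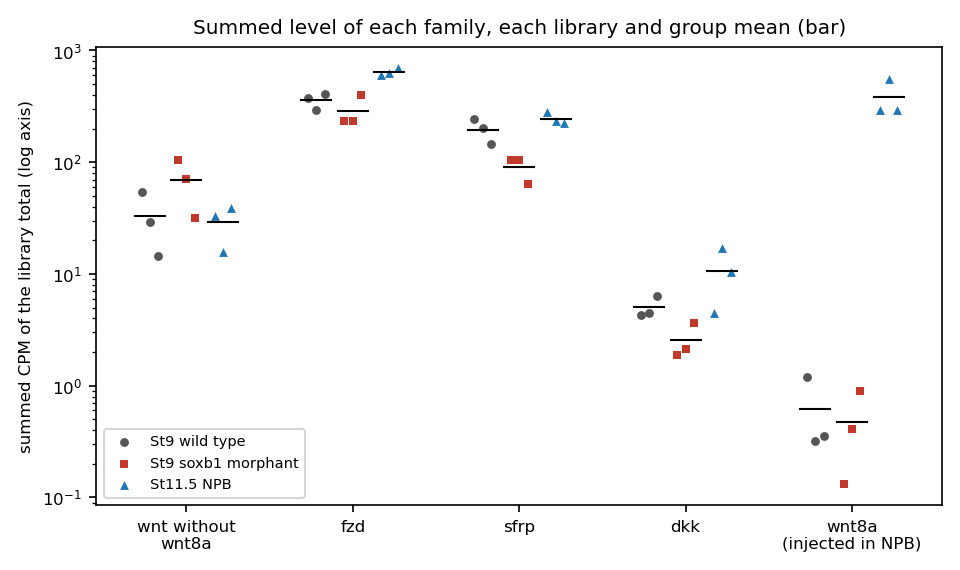
Summed CPM of the library total for each gene family, on a log axis, with a point for each library and a bar at each group mean (n = 3 libraries per group). The sfrp sums of morphant libraries (64.4 to 105 CPM) lie below those of wild-type libraries (145 to 242 CPM), the fzd sums are highest in NPB libraries (604 to 699.6 CPM), and wnt8a stands apart because its mRNA was injected.

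A few genes carried each family. Levels of different genes can be compared only per length, in TPM, an abundance of transcripts corrected for their length, which the files hold for the NPB libraries alone. Apart from wnt8a, the highest there was fzd7.L, a Frizzled known as an abundant maternal receptor in Xenopus, which stood at 123.2 ± 9.76 TPM and made up 41.1% of the summed Frizzled TPM. After it came sfrp2.L at 54.9 ± 10.08, fzd4.S at 41.7 ± 10.9, fzd10.L at 39.4 ± 20.2, fzd7.S at 39.1 ± 3.45 and sfrp2.S at 37.3 ± 3.34 TPM, and each overlapped the next in this order, although the sfrp2.L libraries (46.5 to 66.0 TPM) lay above those of fzd7.S (35.9 to 42.7 TPM). fzd10.S (18.7 ± 6.02 TPM) and sfrp1.S (15.6 ± 13.8 TPM) completed the 10 highest together with the wnt8a rows. The 2 sfrp2 copies held 85.1% of the summed sFRP TPM. The most abundant ligand other than wnt8a was wnt11b.L, at 9.17 ± 3.53 TPM and 41.4% of the ligand total.

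The wnt8a transcripts served as a check of the NPB label. wnt8a.L had 1.20, 0.319 and 0.351 CPM in the wild-type libraries and 0.131, 0.379 and 0.789 CPM in the morphant libraries. In the NPB libraries it had 291, 546 and 293 CPM. Every NPB library was thus far above the stage 9 libraries, with wnt8a.L higher by 9.94 on the log2 scale (SE 0.61, adjusted p 4.28e-05, edgeR's quasi-likelihood test as below) against wild type, or 10.79 without the replicate 1 wild-type library. chrd.1.S, a Chordin gene, moved with it, from at most 1.78 CPM at stage 9 in wild-type libraries to 2458, 13318 and 2957 CPM in NPB libraries. Injected and endogenous transcripts of either gene cannot be told apart.

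For the S copy of wnt8a, counts and the TPM estimate differed widely. The part of read assignment between homeologs in this was not tested. Counts for wnt8a.S were 5, 192 and 152 in the NPB libraries and 0 in each wild-type library, at least 30.3-fold higher in mean CPM against the floor of 3 counts per library, with replicate 1 close to that floor. The TPM estimate for the same row was 71.3, 122.6 and 66.2, the third highest of all members. Counting and the TPM estimate thus ranked this row very differently, and its level is uncertain. Over the 56 members with a mean TPM above 0, the order by mean TPM and by mean CPM correlated at a Spearman rho of 0.915, a description across genes that share the same 3 libraries.

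Whether Wnt pathway genes depended on SoxB1 factors at the blastula stage was asked by comparing morphant with wild-type explants. In the fit without pairing, 0 of 21659 genes tested (0%) reached an adjusted p of 0.05 or less, 0.06 being the smallest, and 1238 had an unadjusted p under 0.05. Of the 64 members without wnt8a, 27 passed the filter on low counts and were tested, and 0 of them were called. At an unadjusted p under 0.05 there were 6 members. DESeq2 without pairing called 3: fzd2.S higher (adjusted p 0.00072), and fzd4.S (adjusted p 0.000114) and sfrp2.S (adjusted p 0.0046) lower. Over all genes that DESeq2 fit called 179 higher, and its count of genes called lower is not given here. The stage 9 libraries were paired by replicate number, as their deviations from the group mean showed: the same-number correlations were 0.868, 0.855 and 0.855. Those between different numbers lay between -0.480 and -0.378. Such deviations sum to 0 within a group, so these negative values follow from the positive ones and add no evidence. The paired fit, in which the replicate number is a block, is therefore given beside each result. Its common dispersion was 0.00724, against 0.147 without pairing. It called 5.75% of all genes tested higher and 6.71% lower.

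In the paired fit 5 members rose in morphants and 6 fell, so 40.7% of the 27 tested members were called, against 12.5% of all genes. By family, 4 of 5 tested ligand rows rose and 0 fell, and 1 of 17 Frizzled rows rose and 3 fell. Of the inhibitor rows, 2 of 3 sFRP rows and 1 of 2 Dickkopf rows fell. These counts include wnt9b.S, a ligand row that passed the filter through the morphant libraries alone and so had to differ to be tested. Libraries of both groups carried the other 26 members past the filter. Morphant libraries lay wholly above wild type for 2 members, again with wnt9b.S among them, and wholly below for 4. The same held for 4.82% and 5.36% of all genes tested. The median log2 fold change of the tested members was -0.01 in the paired fit, beside 0.01 over all genes, and the median absolute log2 fold change was 0.52 beside 0.14.

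**Figure D2:**
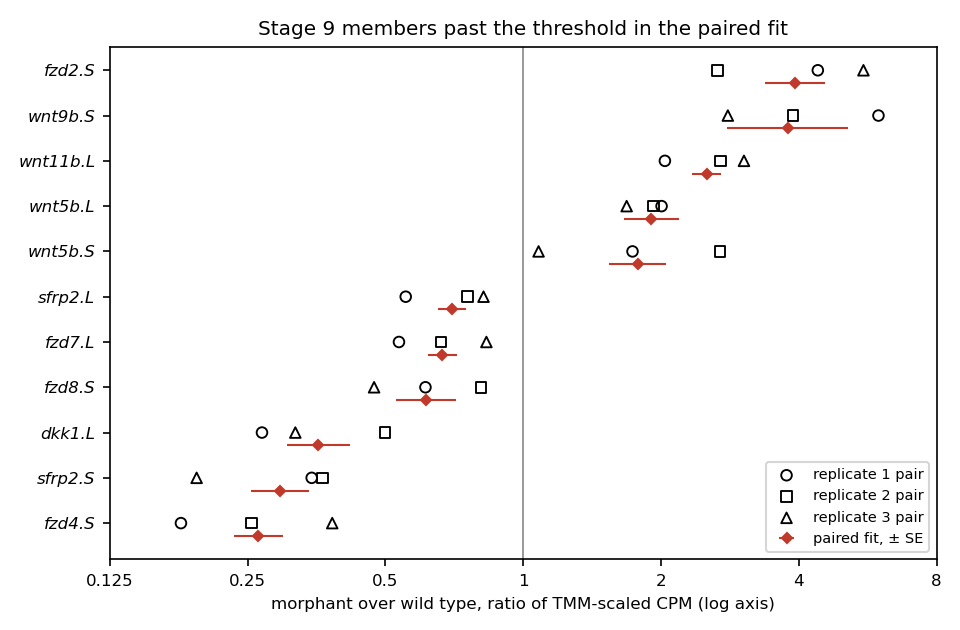
Ratio of TMM-scaled CPM, morphant over wild type, on a log axis, for the 11 members called in the paired fit. Open symbols are the 3 replicate pairs and diamonds the fitted fold change with its SE; all 3 pairs of each gene lie on the same side of 1, from 0.18 for fzd4.S to 5.97 for wnt9b.S.

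Among the ligands, wnt11b.L was higher in all 3 morphant libraries than in the wild-type library of the same number. Xenopus Wnt11b is a maternal ligand known from axis formation and gastrulation movements. It had 39.3, 18.6 and 7.92 CPM in wild-type libraries 1 to 3 and 79.5, 51.0 and 24.0 CPM in the morphant libraries of the same number. The groups overlapped, because the replicates differed as much as the treatment, but within pairs the ratio was 2.04, 2.70 and 3.03. The log2 fold change was 1.23 without pairing (SE 0.64, adjusted p 0.99998), and wnt11b.L rose by 1.33 in the paired fit (SE 0.11, adjusted p 2.17e-06).

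Both copies of wnt5b, a ligand of the non-canonical branch, were also higher in each pair. wnt5b.S had 8.61, 3.69 and 2.68 CPM in wild-type and 14.8, 10.07 and 2.89 CPM in morphant libraries. wnt5b.L had 2.87, 2.34 and 0.607 CPM and 5.71, 4.58 and 1.02 CPM. Groups overlapped for both, with the third pair lowest. In the paired fit wnt5b.S rose by 0.83 (SE 0.21, adjusted p 0.0242) and wnt5b.L by 0.93 (SE 0.20, adjusted p 0.00498). Neither passed without the replicate 1 pair or without the replicate 2 pair, where the adjusted p was 0.0717 and 0.152 for wnt5b.S and 0.0978 and 0.0643 for wnt5b.L.

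wnt9b.S was a rare transcript at 0.116, 0.248 and 0.224 CPM in wild-type and 0.689, 0.979 and 0.625 CPM in morphant libraries. Those libraries did not overlap, although the wild-type values rest on 3 to 7 counts each and the gene passed the filter through the morphant libraries alone. It rose by 1.92 in the paired fit (SE 0.44, adjusted p 0.0085), and this call was lost in DESeq2 with pairing (adjusted p 0.0885) and without the replicate 1 or 2 pair (adjusted p 0.0525 and 0.0874). The remaining tested ligand, wnt5a.S, had a paired log2 fold change of -0.01 (SE 0.21, adjusted p 0.991). The other 30 ligand rows did not pass the filter on low counts.

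Among the receptors, fzd4.S and fzd2.S moved in opposite directions. Frizzled-4 is a receptor for Wnts and, in mammals, for Norrin. fzd4.S had 17.8, 27.7 and 15.2 CPM in wild-type and 3.15, 7.17 and 5.82 CPM in morphant libraries. These did not overlap, and fzd4.S fell by 1.92 in the paired fit (SE 0.18, adjusted p 6.73e-05; adjusted p 0.202 without pairing). A locus with the provisional name fzd4, which is not a member, also fell by 1.20 (SE 0.18, adjusted p 0.000266), from 6.10 ± 1.65 to 2.62 CPM on average.

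fzd2.S had 0.969, 2.06 and 1.21 CPM in wild-type and 4.23, 5.56 and 6.71 CPM in morphant libraries, again with no overlap. It rose by 1.97 (SE 0.22, adjusted p 2.8e-05; adjusted p 0.206 without pairing). The calls for fzd4.S and fzd2.S held with any 1 pair left out, with adjusted p at most 0.0112 and 0.000571.

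The change was smaller for the fzd7 and fzd8 copies. fzd7.L had 190.4, 131 and 197 CPM in wild-type and 101, 87.9 and 163 CPM in morphant libraries, and the groups overlapped. fzd7.L fell by 0.59 in the paired fit (SE 0.11, adjusted p 0.00666), but not without the replicate 2 pair (adjusted p 0.154). Its homeolog fzd7.S, at 110 ± 26.9 and 105 ± 51.4 CPM, had a paired log2 fold change of -0.14 (SE 0.19, adjusted p 0.758). fzd8.S, at 3.003 ± 1.08 and 1.83 ± 0.527 CPM, fell by 0.70 (SE 0.22, adjusted p 0.0456), a call that was lost when any 1 pair was left out, in DESeq2 with pairing (adjusted p 0.241) and with library totals alone (adjusted p 0.0531). The fzd8.L copy had a log2 change of -0.46 (SE 0.31, adjusted p 0.401).

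In all, 13 of the 17 Frizzled rows were not called in either fit, fzd7.S and fzd8.L among them. fzd10.L, at 6.28 ± 1.99 and 9.62 ± 4.87 CPM, had a paired log2 fold change of 0.57 (SE 0.20, adjusted p 0.111), and fzd9.S one of -1.08 (SE 0.38, adjusted p 0.081). fzd5.L, at 9.204 ± 2.13 and 9.88 ± 0.446 CPM, and fzd6.L, at 11.1 ± 3.86 and 11.6 ± 4.32 CPM, differed by less than their spread. Such values do not show that these receptors were unaffected.

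The sFRP and Dickkopf rows called at stage 9 all fell. sfrp2.S had 149, 125 and 87.5 CPM in wild-type and 51.1, 46.3 and 16.9 CPM in morphant libraries, with no overlap. It fell by 1.77 in the paired fit (SE 0.21, adjusted p 0.0127; adjusted p 0.346 without pairing). sfrp2.L had 91.2, 73.6 and 56.0 CPM and 50.1, 56.5 and 45.8 CPM. After TMM scaling, which adjusts library totals for composition, its groups did not overlap either, although 1 morphant library exceeded the lowest wild-type library in CPM. sfrp2.L fell by 0.52 (SE 0.10, adjusted p 0.00453), and the call was lost without the replicate 1 pair (adjusted p 0.0814).

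dkk1.L, a copy of the gene for Dickkopf-1, had 2.83, 3.05 and 4.66 CPM in wild-type and 0.755, 1.55 and 1.48 CPM in morphant libraries. The libraries did not overlap, and dkk1.L fell by 1.49 (SE 0.23, adjusted p 0.000411; adjusted p 0.401 without pairing). The dkk1.S copy had 1.36, 1.38 and 1.502 CPM and 1.02, 0.379 and 2.07 CPM, which overlapped, with a paired log2 fold change of -0.43 (SE 0.38, adjusted p 0.554). sfrp4.L, at 1.66 ± 0.361 and 1.83 ± 0.624 CPM, was the only other sFRP or Dickkopf row tested. Its log2 fold change was 0.11 (SE 0.24, adjusted p 0.846).

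**Figure D3:**
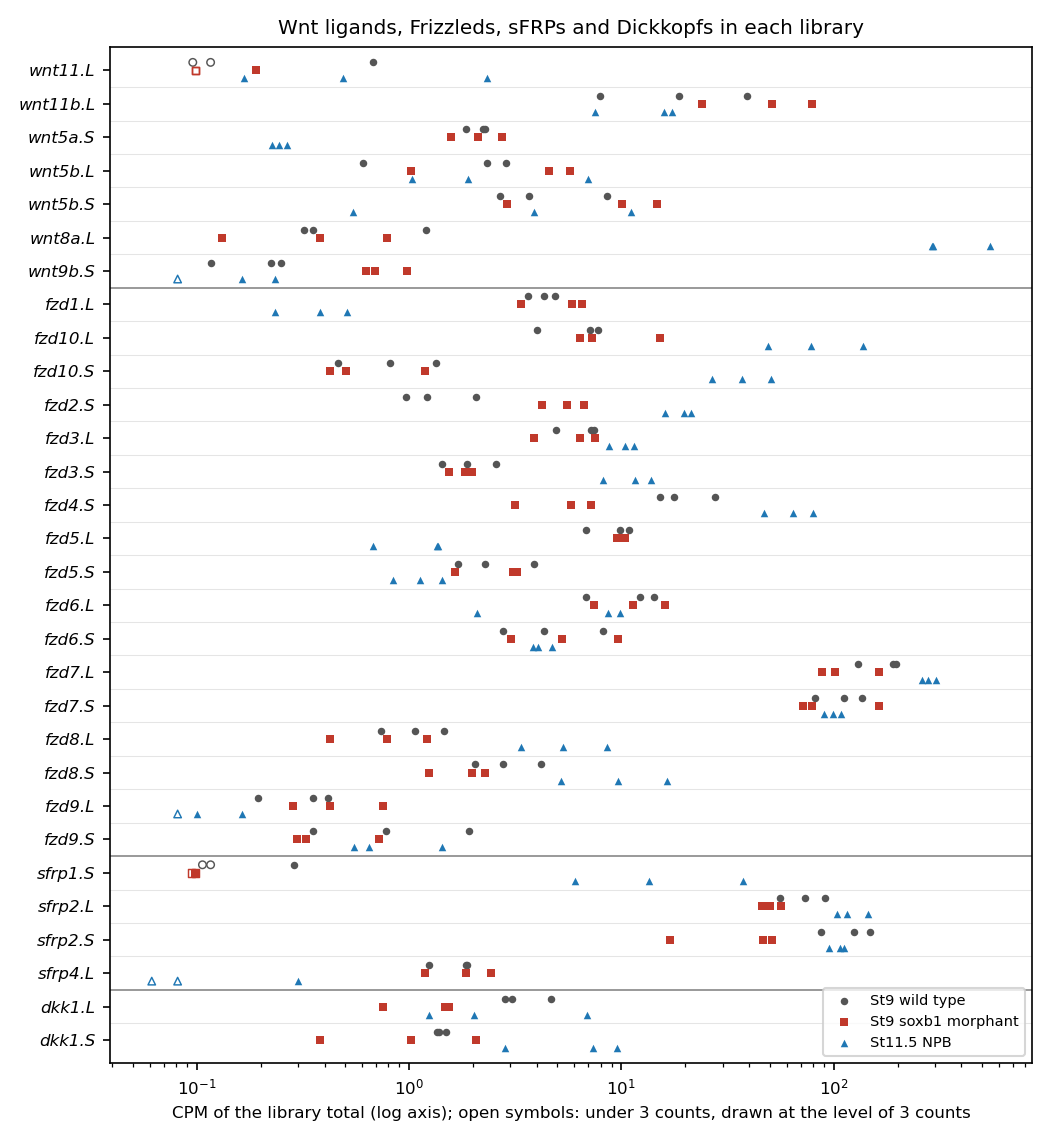
CPM of the library total in each of the 9 libraries, on a log axis, for the 30 members tested in at least 1 comparison, ordered by family. Open symbols mark values under 3 counts; morphant libraries lie below wild-type libraries without overlap for fzd4.S, sfrp2.S and dkk1.L, and NPB libraries lie above them for fzd10.L, fzd10.S, fzd2.S and sfrp1.S.

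A list of 61 rows of Wnt regulators was followed beside the members: secretion factors, co-receptors, further antagonists, R-spondins and their receptors, Frizzled ubiquitin ligases and feedback targets. Of the 37 tested at stage 9, 0 were called without pairing, 2 had an unadjusted p under 0.05 and DESeq2 called 1. In the paired fit 0 rose and 3 fell, 8.11% of those tested, beside 12.5% of all genes tested. For calls in the lower direction alone, the share of all genes was 6.71%. The 3 regulators that fell were named after their values were seen. axin2.L, a negative feedback target of canonical Wnt signalling, had 16.4, 19.2 and 17.99 CPM in wild-type and 5.09, 6.50 and 7.10 CPM in morphant libraries, with no overlap. It fell by 1.53 in the paired fit (SE 0.12, adjusted p 6.6e-07; adjusted p 0.0978 without pairing, 7.98e-10 in DESeq2). One of 2 loci named axin2.S, gene10843, fell by 0.56 (SE 0.09, adjusted p 0.000675) without overlap. The co-receptor gene lrp6.L fell by 0.40 (SE 0.10, adjusted p 0.0146), with overlapping groups and not without the replicate 1 pair (adjusted p 0.263). None of the 3 tested secretion rows (wls.L, wls.S and porcn.L) was called, and their absolute log2 fold changes had a median of 0.02. Of the 7 antagonist rows tested, 0 were called in either fit. In the paired fit 5 of these had a log2 fold change above 0, with a median of 0.35.

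The second comparison set NPB explants of stage 11.5 against wild-type blastula explants and asked which Wnt genes differed in the neural plate border state. Many genes differed: of 21981 tested, 26.9% were called higher and 26.7% lower, and the libraries did not overlap for 31.5% and 32.5%. Of the 27 tested members without wnt8a, 12 were higher and 4 lower, or 59.3% against 53.7% of all genes, and 14 and 4 did not overlap. The share of members called was thus close to the share of all genes, while their median log2 fold change was 1.34 beside -0.04 for all genes tested. Some rows had to differ to be tested at all: sfrp1.S passed the filter (0.326 CPM in at least 3 libraries) through the NPB libraries alone, and sfrp4.L and wnt5a.S through the wild-type libraries alone. Among the 24 members that libraries of both groups carried past the filter, 11 were called higher and 2 lower. Here the scaling matters, since TMM factors were 0.650 to 0.765 for NPB and 1.15 to 1.20 for wild-type libraries. With library totals alone the median over all genes fell to -0.72, 3637 genes were called higher and 9732 lower in place of 5920 and 5877, and the members' calls became 11 and 4. Under that scaling fzd3.L was no longer called (log2 fold change 0.65, adjusted p 0.0857). Without NPB replicate 1, which stands apart for several genes below, 13 members were called higher and 3 lower, with sfrp4.L no longer called.

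**Figure D4:**
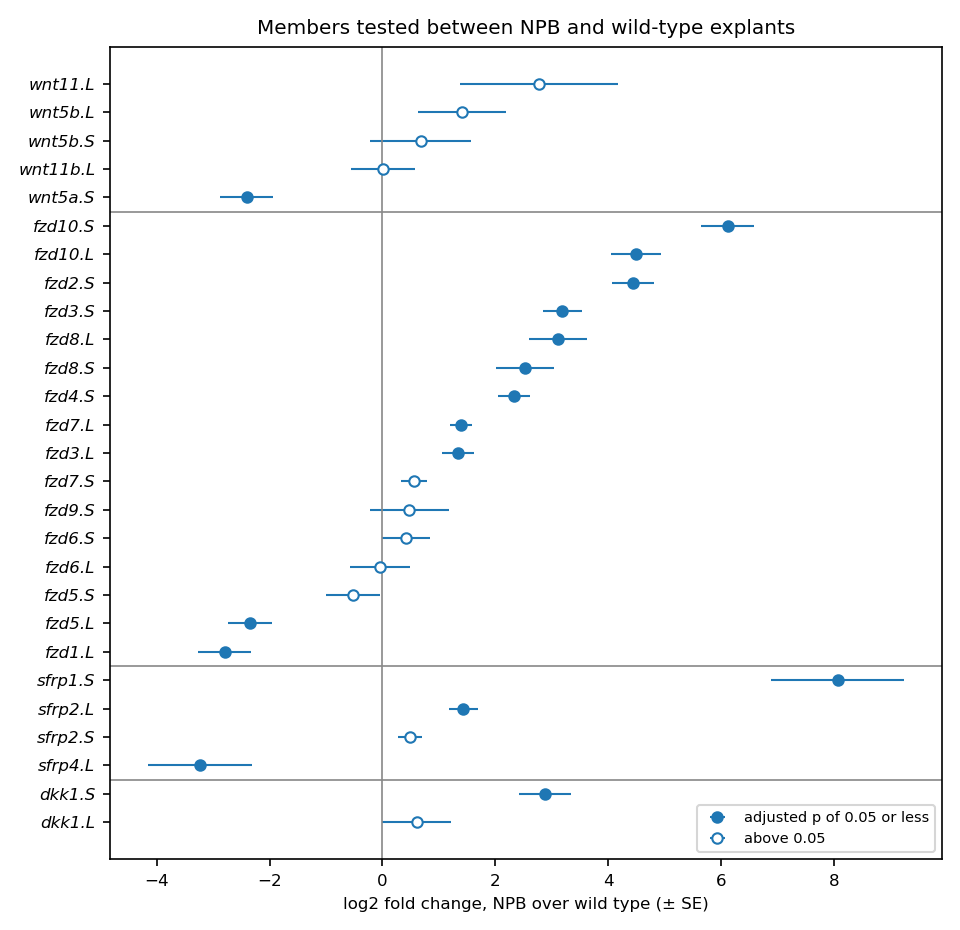
Log2 fold change with its SE, NPB over wild type, for the 27 members tested without wnt8a, by family; filled points passed an adjusted p of 0.05. Values run from -3.24 for sfrp4.L to 8.07 for sfrp1.S, and 9 of the 16 Frizzled rows lie to the right of 0 with filled points.

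Frizzled genes were 11 of the 16 members called, and 16 of the 27 members tested. The share of tested Frizzled rows called was 68.75%, beside 53.7% of all genes tested. Among the 16 fzd rows tested, 9 rose in NPB explants and 2 fell. fzd10, a receptor gene known from the dorsal neural tube of vertebrate embryos, rose in both copies. fzd10.L had 7.09, 4.01 and 7.73 CPM in wild-type and 78.0, 48.9 and 138 CPM in NPB libraries. fzd10.S had 0.814, 0.461 and 1.34 CPM and 36.9, 26.8 and 50.5 CPM. Neither copy overlapped between groups, and the log2 fold changes were 4.49 for fzd10.L (SE 0.45, adjusted p 0.000164) and 6.12 for fzd10.S (SE 0.46, adjusted p 5.49e-05).

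fzd2.S, at 0.969, 2.06 and 1.21 CPM in wild-type libraries, had 21.3, 16.0 and 19.6 CPM in NPB libraries and rose by 4.45 (SE 0.37, adjusted p 7.81e-05). A locus provisionally named fzd2 went from 0.748 to 23.7 CPM on average and rose by 5.704 (SE 0.43, adjusted p 5.49e-05). fzd4.S had 46.8, 79.8 and 64.2 CPM in NPB libraries, above each wild-type library, and rose by 2.34 (SE 0.28, adjusted p 0.000336). The locus provisionally named fzd4 rose by 3.56 (SE 0.31, adjusted p 8.49e-05).

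fzd3, a receptor gene known from neural crest induction in Xenopus, rose in both copies. fzd3.S had 2.56, 1.88 and 1.44 CPM in wild-type and 8.21, 13.7 and 11.6 CPM in NPB libraries, a log2 change of 3.19 (SE 0.34, adjusted p 0.000207). fzd3.L, at 6.53 ± 1.40 and 10.2 ± 1.39 CPM, rose by 1.34 (SE 0.29, adjusted p 0.00483), the call that library totals alone did not make. Both copies of fzd8 rose too, fzd8.L by 3.12 (SE 0.52, adjusted p 0.00142) and fzd8.S by 2.53 (SE 0.52, adjusted p 0.00401). fzd8.S had 16.4, 9.68 and 5.18 CPM in the NPB libraries against 2.05 to 4.19 CPM in wild type, and its log2 fold change was 1.92 without NPB replicate 1.

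fzd7.L had 260 to 305 CPM in NPB libraries, above the 131 to 197 CPM of wild type, and rose by 1.39 (SE 0.19, adjusted p 0.000579). fzd7.S had 109, 90.2 and 99.8 CPM, within the wild-type range of 82.1 to 136 CPM on the library total. Its log2 fold change after TMM scaling was 0.56 (SE 0.23, adjusted p 0.0699), so its direction differs from that of the mean CPM, which went from 110 to 99.6. fzd1.L fell from 3.64, 4.86 and 4.31 CPM to 0.380, 0.234 and 0.512 CPM, with a log2 change of -2.79 (SE 0.47, adjusted p 0.00154). A locus provisionally named fzd1 was lower as well, at -2.02 (SE 0.46, adjusted p 0.00642). fzd5.L, whose gene is known from retinal development in Xenopus, went from 10.9, 6.81 and 9.91 CPM to 0.678, 1.37 and 1.35 CPM, at -2.35 (SE 0.39, adjusted p 0.00148). Neither fzd1.L nor fzd5.L overlapped between groups. The copy fzd5.S (-0.53, SE 0.48, adjusted p 0.381) was not called, nor were fzd6.L, fzd6.S and fzd9.S, while fzd9.L did not pass the filter, with 2 to 8 counts per NPB library.

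Ligands other than wnt8a were mostly too rare to test: 5 of 35 rows passed the filter, 0 were called higher and 1 lower. The share of tested ligand rows called was 20%, beside 53.7% of all genes tested. wnt5a.S, a non-canonical ligand, had 1.86, 2.24 and 2.27 CPM in wild-type and 0.244, 0.267 and 0.225 CPM in NPB libraries, with no overlap and a log2 change of -2.41 (SE 0.47, adjusted p 0.00313). It passed the filter through the wild-type libraries alone and so had to differ to be tested. wnt11b.L had 15.8, 7.54 and 17.4 CPM in NPB libraries, inside the wild-type range, and a log2 change of 0.01 (SE 0.57, adjusted p 0.988). wnt5b.S ran from 0.542 to 11.1 CPM and wnt5b.L from 1.03 to 6.94 CPM over the NPB libraries, both wider than in wild type. Their log2 fold changes of 0.68 (SE 0.90, adjusted p 0.552) and 1.41 (SE 0.79, adjusted p 0.164) were within the spread.

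Several rare ligands were detected mostly in 1 NPB library. wnt1.L, a canonical ligand known from the dorsal neural tube, had 6.64 CPM in NPB replicate 1 and 0.234 and 0.143 CPM in replicates 2 and 3. wnt11.L had 2.33, 0.167 and 0.491 CPM, and was tested with a log2 change of 2.78 (SE 1.40, adjusted p 0.131). wnt3a.L had 23, 1 and 1 counts and wnt8b.S 27, 0 and 0 counts in the NPB libraries. wnt4.L was high in replicates 1 and 3: with 85, 7 and 56 counts there and 0 in each wild-type library, was at least 11.6-fold higher in mean CPM against the floor of 3 counts per library and did not pass the filter. NPB replicate 1 thus stood apart for wnt1.L, wnt11.L, wnt3a.L and wnt8b.S. It also held the highest sum of neural plate border markers (2046 CPM, beside 1449 and 1488 CPM) and the lowest of mesoderm markers (0.976 CPM, beside 5.64 and 23.4 CPM). Among the border markers, each pax3, msx1 and tfap2a row was highest in replicate 1, whereas both zic1 copies were lowest there. zic1.L had 119 CPM, beside 279 and 239 CPM, and zic1.S had 588 CPM, beside 683 and 723 CPM.

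The sFRPs moved in both directions, with rare transcripts at the ends of the range. sfrp1.S had 0.0388, 0 and 0.288 CPM in wild-type libraries, from 1, 0 and 9 counts, and 37.5, 6.04 and 13.5 CPM in NPB libraries. The groups did not overlap, and the log2 fold change was 8.07 (SE 1.18, adjusted p 0.00106), for a gene that only its NPB level brought into the test. It was 6.99 without NPB replicate 1 and 10.41 without wild-type replicate 3. The sfrp1.L copy had 2 to 7 counts per NPB library and was not tested.

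sfrp2.L had 146, 115 and 103 CPM in NPB libraries, above the 56.0 to 91.2 CPM of wild type, and rose by 1.43 (SE 0.25, adjusted p 0.00197). sfrp2.S had 95.2, 112 and 107 CPM, within the wild-type range of 87.5 to 149 CPM on the library total, where the mean CPM went from 121 to 105, and a log2 fold change of 0.49 after scaling (SE 0.21, adjusted p 0.081). sfrp4.L went the other way, from 1.86, 1.88 and 1.25 CPM to 0.0271, 0.3004 and 0.0205 CPM. The NPB values rest on 1, 9 and 1 counts, and sfrp4.L passed the filter through the wild-type libraries alone. It fell by 3.24 on the log2 scale (SE 0.92, adjusted p 0.0177), by 5.26 without NPB replicate 2, and was not called without NPB replicate 1 (adjusted p 0.0577).

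Of the Dickkopfs, dkk1.S rose and dkk1.L was not called. dkk1.S had 2.82, 9.58 and 7.35 CPM in NPB libraries, above the 1.36 to 1.502 CPM of wild type, with a log2 change of 2.87 (SE 0.46, adjusted p 0.00123). dkk1.L had 1.25, 6.91 and 2.03 CPM, which spanned the wild-type range, and a log2 change of 0.61 (SE 0.61, adjusted p 0.434). dkk2.L, with 5, 13 and 23 counts in NPB libraries and 0 in each wild-type library, was at least 3.27-fold higher in mean CPM against the floor and was not tested. A locus provisionally named dkk3, gene35122, rose by 2.28 (SE 0.57, adjusted p 0.0101) and was under 1 CPM in both groups. Another locus with that name, gene44779, had 0 counts in each NPB library.

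Some members were called in both comparisons, which share the wild-type libraries and so are not independent. fzd4.S had a log2 fold change of -1.92 in the paired morphant fit and 2.34 in NPB explants, fzd8.S -0.70 and 2.53, fzd7.L -0.59 and 1.39, and sfrp2.L -0.52 and 1.43. fzd2.S had 1.97 and 4.45. The morphant call for fzd8.S was lost with any pair left out. That for fzd7.L was lost without the replicate 2 pair, and that for sfrp2.L without the replicate 1 pair. The share of all genes called in both comparisons is not given here. For dkk1 the copies differed, with dkk1.L called in morphants alone and dkk1.S in NPB explants alone. The sfrp2.S copy was called in morphants alone.

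The share of regulators called in NPB explants was again close to that of all genes. Of 43 tested, 19 rose and 5 fell, or 55.8% against 53.7% of all genes, with a median log2 fold change of 1.16. With library totals alone 15 were higher and 10 lower. Of those that rose, 7 passed the filter through the NPB libraries alone and so had to differ (cer1.S, kremen2.L, kremen2.S, lef1.L, rspo2.L, rspo3.L and sp5.S), and their log2 values rest on wild-type levels near 0. Among the 36 regulators that libraries of both groups carried past the filter, 12 rose and 5 fell. Of the 9 feedback target rows, 7 rose and 1 fell. sp5.L and sp5.S encode an Sp factor induced by canonical Wnt signalling. sp5.L had 0.155, 0.284 and 0.543 CPM in wild-type and 168, 245 and 407 CPM in NPB libraries, a log2 change of 10.32 (SE 0.52, adjusted p 2.05e-05), or 10.90 without wild-type replicate 3. sp5.S had 59.6, 64.5 and 130 CPM in NPB libraries against 3 counts in all wild-type libraries together (adjusted p 2.05e-05).

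The other feedback targets followed. lef1.L, a Tcf/Lef gene, had 4.09, 4.54 and 13.4 CPM in NPB libraries and at most 0.271 CPM in wild type, a log2 change of 6.08 (SE 0.67, adjusted p 0.000233), or 5.38 without NPB replicate 3. The axin2.S locus gene10843 had 25.2, 32.1 and 30.4 CPM in wild-type and 271, 203 and 339 CPM in NPB libraries, a log2 change of 3.91 (SE 0.23, adjusted p 2.91e-05). The locus gene8337 with the same name rose by 5.24 (SE 0.68, adjusted p 0.00049), by 4.62 without NPB replicate 3 and by 5.89 without wild-type replicate 1, and reads could have been split between these loci. nkd1.S, a Naked homologue that acts in negative feedback, fell instead, from 12.3, 12.99 and 17.1 CPM to 0.651, 1.03 and 0.430 CPM, by 3.64 on the log2 scale (SE 0.42, adjusted p 0.00028). The nkd1.L copy had 5.23, 7.45 and 1.44 CPM in wild-type and 10.6, 3.47 and 4.75 CPM in NPB libraries, which overlapped. Its log2 change of 1.16 was not called (adjusted p 0.173). With L and S counts summed, nkd1 was no longer called, with or without the block (adjusted p at most 0.184). nkd1.S and the other 4 regulators that fell (apcdd1.L, lgr4.L, ryk.S and ptk7.S) were named after their values were seen. The lgr4.S copy rose (0.92, SE 0.25, adjusted p 0.0137) where lgr4.L fell (-1.004, SE 0.34, adjusted p 0.0369). The call for lgr4.L was lost without any 1 library other than wild-type replicate 1 (adjusted p 0.0602 to 0.105), that for lgr4.S without wild-type replicate 1 or 2 (adjusted p 0.0545 and 0.0561), and that for ptk7.S without wild-type replicate 3, NPB replicate 2 or NPB replicate 3 (adjusted p 0.0536 to 0.0662).

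Of the co-receptors, ror2 had the largest log2 fold changes. ror2.L, a receptor tyrosine kinase of the non-canonical branch, had 1.28, 0.781 and 0.288 CPM in wild-type and 191, 246 and 282 CPM in NPB libraries. ror2.S had 5.04, 1.53 and 0.383 CPM and 219.7, 153 and 194 CPM. Neither overlapped, with log2 fold changes of 8.96 (SE 0.49, adjusted p 2.64e-05) and 7.07 (SE 0.86, adjusted p 0.00049), the latter 8.34 without wild-type replicate 1. kremen2.L, which encodes a Dickkopf receptor, had 9.14, 18.5 and 42.8 CPM in NPB libraries and at most 0.233 CPM in wild type, a log2 change of 7.86 (SE 0.70, adjusted p 0.000103), and kremen2.S one of 7.46 (SE 1.16, adjusted p 0.00131). Without NPB replicate 3, the library highest for both, these were 7.14 and 6.06, and kremen2.S had 6.85 without wild-type replicate 3.

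The Cerberus gene cer1.S and the R-spondin genes rspo3.L and rspo2.L were highest in NPB replicate 1. cer1.S, whose product binds Wnt, Nodal and BMP ligands, had 67.9, 2.27 and 20.05 CPM in NPB libraries and at most 0.0959 CPM in wild type. Its log2 fold change was 9.97 (SE 1.64, adjusted p 0.00181), or 8.39 without NPB replicate 1 and 11.09 without wild-type replicate 3. rspo3.L had 8.54, 1.70 and 2.01 CPM and rspo2.L 5.12, 0.834 and 1.49 CPM, where R-spondins are secreted proteins that raise the level of Frizzled at the cell surface. rspo2.L rose by 5.80 (SE 0.97, adjusted p 0.00146), or by 4.57 without NPB replicate 1. rspo3.L, with 1 count over the wild-type libraries, also passed the test (adjusted p 0.000697). A locus named rspo2.S, gene20849, went the other way and was not tested. Its counts were 4, 11 and 32 in wild-type and 3, 0 and 0 in NPB libraries.

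The balance between homeologs was described for the members present as an L and an S copy. The share of L counts among L and S counts was compared in pairs with at least 20 counts in each library, by exact two-sided permutation tests whose smallest possible p is 0.1 with 3 libraries against 3. None of the 21 tests could reach 0.05, and the lowest adjusted p was 0.21. Between morphant and wild-type libraries the shares did not overlap for 3 of 11 pairs, beside 9.18% of all 5981 homeolog pairs with such counts. sfrp2.L made up 37.0% to 39.0% of the sfrp2 counts in wild-type and 49.5% to 73.0% in morphant libraries, fzd7.L 59.2% to 62.9% and 49.8% to 58.6% of fzd7, and fzd10.L 85.2% to 89.7% and 92.8% to 93.7% of fzd10.

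In NPB libraries the shares did not overlap with wild type for 7 of 10 pairs, beside 51.2% of all 5770 pairs. For dkk1 the L copy went from 70.7% ± 4.34 to 31.4% ± 10.2, for fzd3 from 76.3% ± 9.39 to 48.2% ± 8.68, for fzd5 from 78.4% ± 4.06 to 49.3% ± 4.97 and for fzd10 from 88.2% ± 2.59 to 68.6% ± 4.37. It was higher in NPB libraries for fzd7 (61.2% ± 1.91 and 73.8% ± 3.36), fzd8 (26.7% ± 0.939 and 36.4% ± 2.66) and sfrp2 (38.0% ± 0.996 and 53.4% ± 6.16). The 3 pairs that overlapped were fzd6, fzd9 and wnt5b. Reads that fit both copies may have been dropped or split in counting, so a share rests on the reads that could be told apart.

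**Figure D5:**
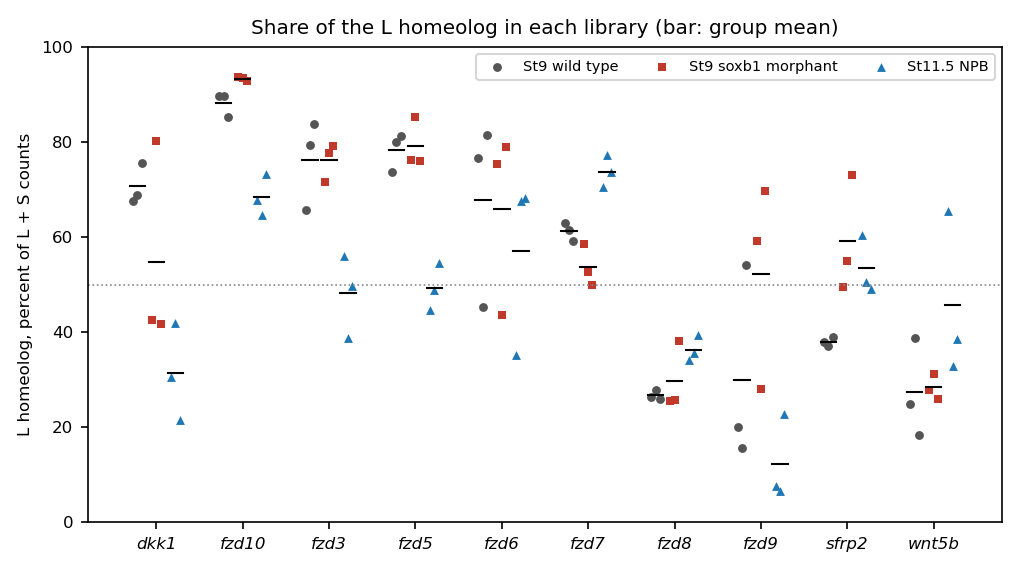
L homeolog counts as a percent of L and S counts in each library, with a bar at the group mean, for the 10 pairs compared between NPB and wild type. The NPB shares lie below wild type for dkk1, fzd10, fzd3 and fzd5 and above it for fzd7, fzd8 and sfrp2.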

How the data were processed

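Directional RNA-seq libraries of 9 explant samples were used. The authors trimmed reads with fastp, aligned them with STAR to genome version 9.2 and counted reads per gene with HTSeq; these raw counts were deposited for each library. TPM values from RSEM, made by the authors for the NPB libraries alone, are relative to each library's total and corrected for transcript length. Tool versions, the annotation release and the strand setting are not given in the sources used here. The deposited table of the authors' own DESeq2 comparison (fold changes and adjusted p-values) was not used.

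Groups and replicate numbers came from the sample titles. The NPB columns, headed WC, were mapped by replicate number. No 2 replicates agreed within sampling noise (chi-square per gene of 41.2 or more), so each library counted once.

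Counts were tested 2 groups at a time in edgeR 4.0.16 under R 4.3.3, by its robust quasi-likelihood method after filterByExpr and TMM scaling, and p-values were adjusted over every gene tested by the Benjamini-Hochberg method. A call is an adjusted p of 0.05 or less. The SE of a log2 fold change was taken as its size divided by the root of the F statistic and is approximate. DESeq2 1.42.0, limma-voom (limma 3.58.1), other scalings and filters, left-out libraries, summed homeologs and the replicate number as a block were alternatives. The tests were run on simulated counts with known changes, which left out rarely counted genes. Without pairing, the simulated dispersion was lower than that of the data (0.147 for morphants and 0.148 for NPB). The power of the reported unpaired fits was therefore not checked. Stage 9 numbers were taken as pairs because the labels share them and every same-number correlation of log2 CPM (prior count 2) passed 0.1. For NPB against wild type they were not.

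Genes named were, in each comparison, called members by absolute log2 fold change and their homeologs, the most abundant members, the wnt8a rows and up to 12 called regulators. Counts of 5 or fewer were named after their values were seen. The members, lists and tests were chosen with earlier results of these data known. Of the members, 60 have their symbol in the RefSeq table of assembly v10.1, which differs from the build of the files, so no coordinates are given, and sequences were not used here.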

Additional observations from a re-analysis of the deposited data

How the results depend on the processing

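Between morphant and wild type, the unpaired fit called 0 members and 0 regulators in either direction, and leaving out any 1 library without pairing gave 0 as well. With the replicate number as a block, 5 members were higher and 6 lower, and 3 regulators lower. DESeq2 called 1 and 2 members and 1 regulator lower without pairing, and 4, 5 and 3 with it. Pairing with library totals alone gave 5 and 5 members and 3 regulators lower, and pairing with L and S counts summed 4 and 4 members. Both of these were chosen after seeing the data. With 1 pair left out, the paired fit called 2 to 5 members higher and 4 to 6 lower, and 0 to 1 regulators higher and 3 to 4 lower.

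Between NPB and wild type, keeping each gene with at least 1 count summed over the libraries raised the members tested from 27 to 59. The members called higher went from 12 of 27 tested to 19 of 59 tested, a smaller share. A filter of at least 10 counts in every library left 22 members tested. It lowered the members called lower from 4 to 1 and the regulators called higher from 19 to 10. Library totals alone raised the regulators called lower from 5 to 10, with or without the block, and a threshold of 0.01 gave 3. With 1 library left out, 3 to 4 members and 3 to 6 regulators were lower, the count of 3 regulators coming without wild-type replicate 3, NPB replicate 2 or NPB replicate 3. The numbers did not pair these libraries (correlations of -0.0574, -0.011 and -0.0561 at the same number). The replicate block gave 12 and 4 members, and without a pair 2 to 3 members and 1 to 3 regulators lower. lgr4.L turned to 0.48 (adjusted p 0.0961) with L and S counts summed, and to 0.49 (adjusted p 0.149) with the block as well. TMM scaling raised the NPB sums to 888 CPM for fzd and 343 CPM for sfrp. The cause of these shifts was not tested beyond what each setting itself changes. For single genes, the alternatives were set against the unpaired fit in both comparisons. Under them, 993 values kept direction and side of the threshold, and 86 passed it where the unpaired fit did not. A further 57 no longer passed and 2 reversed. Between morphant and wild type the unpaired fit called none of these genes, so a value that kept its side there was not called. For fzd8.S this held in 19 of 21 alternatives. The 86 values came from that comparison, where the calls named above are those of the paired fit.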
